A study of Caenorhabditis elegans with 21 samples.

Results

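The asp genes encode the pepsin-like aspartyl proteases of Caenorhabditis elegans, and 10 of them, asp-1, asp-2, asp-3, asp-4, asp-5, asp-6, asp-8, asp-10, asp-13 and asp-17, were followed here across 9 genotypes. They were taken by name from the 22840 genes of the deposited table, and all 10 were in it. The measurement was mRNA-seq of whole worms, in 21 libraries, with expression given in transcripts per 1000000 (TPM), a scale corrected for gene length. There were 2 libraries each of the double mutants daf-16(mgDf50);pmk-1(D327E), daf-16(mgDf50);pmk-1(km25), daf-16(m26);pmk-1(D327E) and daf-16(m26);pmk-1(km25) and of both daf-16 single mutants, mgDf50 and m26, and 3 libraries each of pmk-1(D327E), of pmk-1(km25) and of wild type. A double mutant is described below as D327E or km25 worms with daf-16(mgDf50) or with daf-16(m26). pmk-1 encodes a p38 MAP kinase of innate immunity, km25 is a null allele, and D327E is a CRISPR change of the endogenous gene that keeps the CED-3 caspase from cutting the protein. daf-16 encodes the FOXO transcription factor of insulin signalling, mgDf50 is a deletion and m26 changes a splice site. All animals had 48 h on OP50 bacteria at 20 °C. The labels call them late L4 larvae and the study's methods call them young adults, and the strain name on the daf-16(mgDf50);pmk-1(D327E) libraries is one that the study's strain list gives to another double mutant. The question was how expression differs when PMK-1 is missing and when it cannot be cleaved, with and without DAF-16.

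Aspartyl proteases of the pepsin type are made as inactive precursors and cut proteins with a pair of catalytic aspartates in an acidic compartment. Cathepsin D of the mammalian lysosome is the best known of them. In C. elegans the intestine is the main site of digestion and holds abundant lysosome-related compartments. ASP-1 is a lysosomal protease of the intestine, and ASP-3 and ASP-4 are cathepsin D-like enzymes required for the necrotic death of degenerating neurons. The gene listed as asp-10 is now named hrg-7 in worm nomenclature, after a part in heme signalling between tissues. No established role is given here for the other 6.

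The members lie mainly on chromosome V. In the WBcel235 annotation, used for names and gene order only, 9 of the 10 were found by name, all but asp-10. Only protein-coding genes and pseudogenes of the annotation were looked at. asp-3 and asp-4 lie on the X chromosome and the other 7 on chromosome V. asp-6 and asp-5 flank asp-12 without another such gene in between. asp-17 stands beside asp-16, which stands beside asp-15, and asp-8 stands beside asp-7. A single gene stands between asp-15 and asp-1. How reads matching several of these neighbours were counted is not given in the sources used here, so reads could have been split between close copies.

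The libraries differed in ways that genotype did not account for. The sum of 31 msp genes, which encode major sperm protein, ran from 1453 TPM in wild type replicate 2 to 6708 TPM in pmk-1(km25) replicate 1, and within the 3 wild-type libraries alone from 1453 to 5491 TPM. pmk-1(km25) replicate 2 also stood low, at 1487 TPM. Markers of intestine (5 genes, summed 685 to 1524 TPM), body wall muscle (4 genes, 641 to 1949.5 TPM), epidermis (4 genes, 1710.3 to 2698 TPM), germline (4 genes, 1118 to 1615 TPM), neurons (5 genes, 226 to 269.6 TPM) and yolk (6 genes, 8960.2 to 16045 TPM) were all detected in every library. daf-16 was at 6.12 to 7.78 TPM in the 6 mgDf50 libraries, against 41.5 to 61.8 TPM in the other 15, and the daf-16(mgDf50);pmk-1(D327E) libraries, at 7.26 and 7.78 TPM, were among the 6. pmk-1 was at 10.7 to 13.9 TPM in the 7 km25 libraries, against 12.7 to 16.5 TPM in the other 14, so its level does not check the label of that allele. Whole-worm RNA cannot tell fewer cells of a type from less RNA per cell.

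asp-1 was the member with the highest level, with a mean of 1760.1 TPM over the 21 libraries and a range of 1141 to 2536 TPM. Next in order of mean TPM came asp-3 (862), asp-6 (716), asp-5 (365), asp-2 (349), asp-13 (284), asp-4 (216), asp-10 (47.5), asp-17 (6.399) and asp-8 (5.75). The ranges of neighbours in this order overlapped, except those of asp-4 (179 to 263 TPM) and asp-10 (22.6 to 88.5 TPM). Together the 10 members made up 0.635% of the transcripts in daf-16(mgDf50) replicate 1 and 0.283% in pmk-1(km25) replicate 2, the highest and the lowest library. Those libraries were also the highest and the lowest in the summed intestine markers, at 1524 and 685 TPM. A link between these values was not tested. asp-4 and asp-13 varied least, with a highest-to-lowest ratio of 1.47 and 1.57 over the libraries. asp-17 varied most, with a ratio of 102, and asp-8 followed with 10.7.

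**Figure D1:**
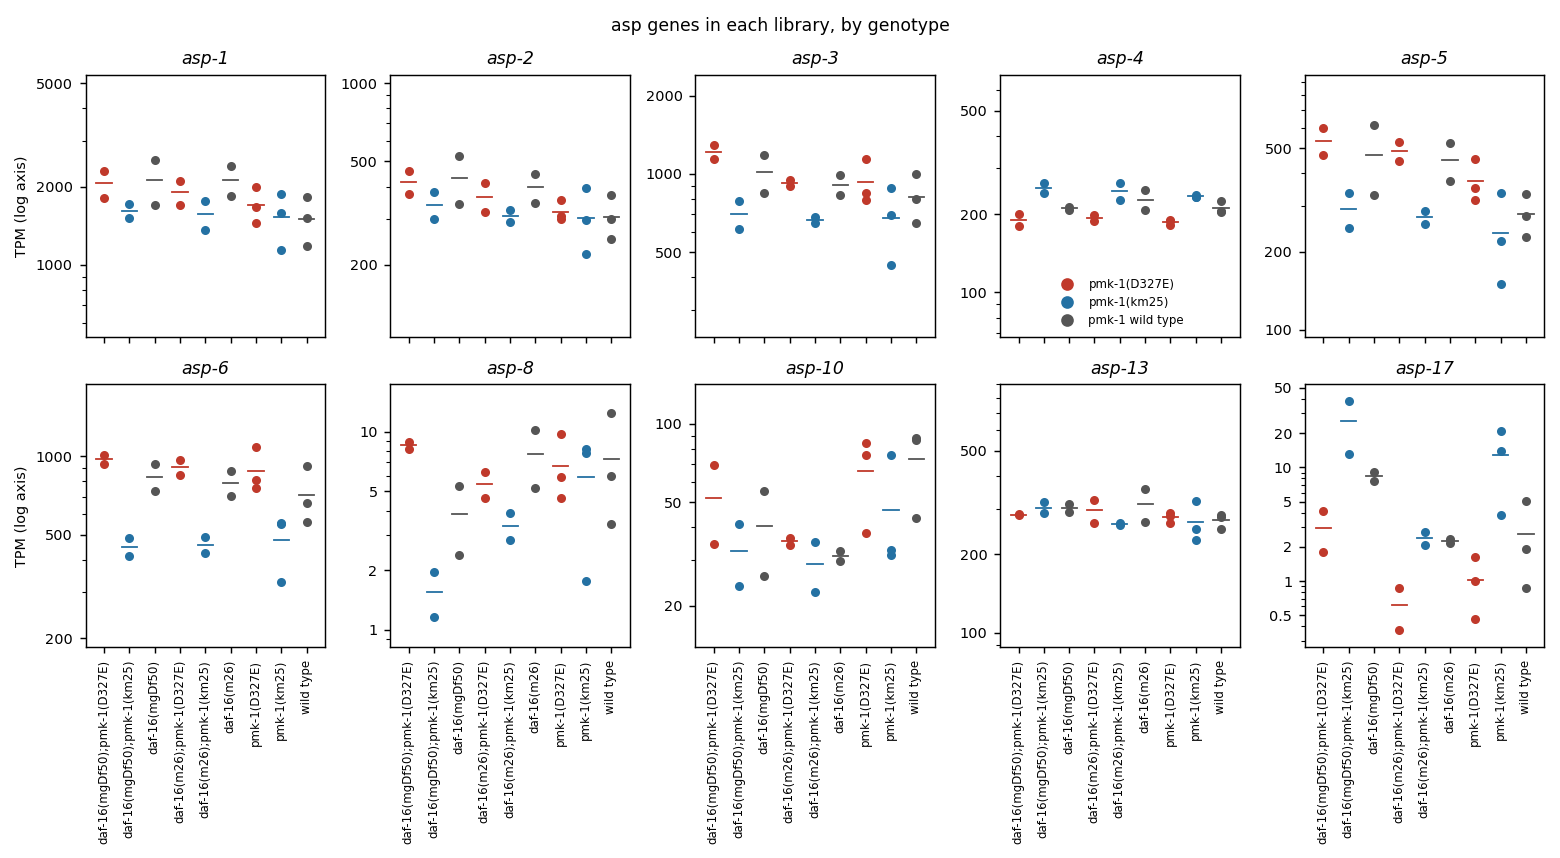
TPM of each asp gene (log axis, 1 panel a gene) in the 21 libraries, grouped by genotype; points are libraries, short lines are genotype means, and colours give the pmk-1 allele. In the asp-6 panel every pmk-1(km25) point, at most 552 TPM, lies below every other point, and in the asp-4 panel every pmk-1(D327E) point, at most 199.9 TPM, lies below every other point.

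The comparison of pmk-1(D327E) with pmk-1(km25) sets a PMK-1 that resists cleavage against none, and it was the comparison in which asp genes passed the test. It can be made in 3 daf-16 backgrounds that share no libraries. With daf-16 intact asp-6 rose and asp-17 fell, 2 of 10 members, where 1.08% of the 12843 genes tested were called. With daf-16(mgDf50) asp-6 rose and asp-17 and asp-4 fell, 3 of 10 members, against 1.26% of all genes. With daf-16(m26) none of the 10 members passed, against 0.747% of all genes, and 3 of them had an unadjusted p under 0.05, against 3.18% of all genes. The members under an unadjusted p of 0.05 numbered 6 with daf-16(mgDf50), against 4.98% of all genes, and 5 with daf-16 intact, against 4.41%. The test was limma on log2(TPM + 1) with all 9 genotypes in a single model, with p-values adjusted over all genes by Benjamini-Hochberg and a gene called below 0.1.

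asp-6 was at 1014 and 937 TPM in D327E worms with daf-16(mgDf50), against 483 and 415 TPM in km25 worms with daf-16(mgDf50). In D327E worms with daf-16(m26) it was at 967 and 848 TPM, against 487 and 426 TPM in km25 worms with daf-16(m26). In pmk-1(D327E) it was at 807, 756 and 1080.2 TPM, against 547, 329 and 552 TPM in pmk-1(km25). All 7 libraries with D327E were thus above all 7 with km25, and the lowest D327E library stood at 756 TPM against 552 TPM for the highest km25 library. The log2 fold change of asp-6 was 1.12 ± 0.26 with daf-16(mgDf50) (SE, adjusted p = 0.0621), 0.99 ± 0.26 with daf-16(m26) (adjusted p = 0.196) and 0.91 ± 0.21 with daf-16 intact (adjusted p = 0.0725), by limma. The 3 values lay within 1 SE of each other, and that with daf-16(m26) did not reach the threshold.

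asp-4, one of the cathepsin D-like genes, ran the other way over a much narrower range. It was at 179 and 199.9 TPM in D327E worms with daf-16(mgDf50), against 241 and 262 TPM in km25 worms with daf-16(mgDf50). It was at 199 and 189 TPM in D327E worms with daf-16(m26), against 226 and 263 TPM in km25 worms with daf-16(m26). It was at 188, 182 and 189 TPM in pmk-1(D327E), against 233, 236 and 233 TPM in pmk-1(km25). The groups did not overlap in any of the 3 backgrounds. The log2 fold change of asp-4 was -0.41 ± 0.10 with daf-16(mgDf50) (adjusted p = 0.0847), -0.33 ± 0.10 with daf-16(m26) (adjusted p = 0.455) and -0.33 ± 0.08 with daf-16 intact (adjusted p = 0.105), by limma, and only the first passed.

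Across backgrounds, asp-6 and asp-4 were the 2 members whose 7 D327E libraries did not overlap the 7 km25 libraries, where 1.38% of all tested genes did not. The 7 libraries with unaltered pmk-1 help to place the values. asp-6 was at 329 to 552 TPM in the 7 km25 libraries and at 558 to 1080.2 TPM in the other 14, and 0.592% of tested genes had all km25 libraries below the rest. asp-4 was at 179 to 199.9 TPM in the 7 D327E libraries and at 204 to 263 TPM in the other 14. It was the 1 gene of the 12843 tested (0.00779%) whose 7 D327E libraries were all below the other 14, and 7 genes had them all above. asp-6 in the D327E libraries, at 756 to 1080.2 TPM, overlapped the 558 to 931 TPM of the libraries with unaltered pmk-1. asp-4 in the km25 libraries, at 226 to 263 TPM, overlapped the 204 to 246 TPM of those libraries. These shares are descriptions chosen after the values were seen, and no test was run over the pooled backgrounds.

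**Figure D2:**
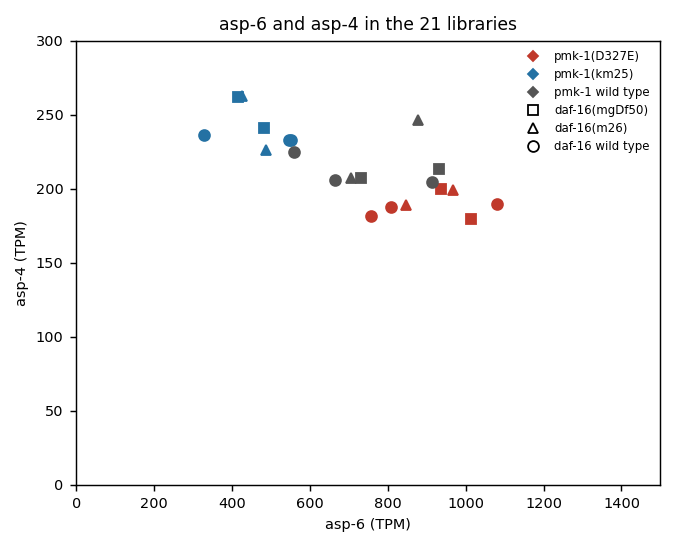
asp-4 against asp-6 in the 21 libraries (both in TPM, axes from 0); colours give the pmk-1 allele and symbols the daf-16 allele. The km25 libraries sit at the upper left (asp-6 at most 552 TPM, asp-4 at least 226 TPM) and the D327E libraries at the lower right (asp-6 at least 756 TPM, asp-4 at most 199.9 TPM).

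asp-17 had the largest fold of the members but low levels and a wide spread. It was at 1.79 and 4.12 TPM in D327E worms with daf-16(mgDf50), against 38.3 and 13.2 TPM in km25 worms with daf-16(mgDf50). It was at 0.374 and 0.870 TPM in D327E worms with daf-16(m26), against 2.09 and 2.73 TPM in km25 worms with daf-16(m26). It was at 1.00, 0.463 and 1.62 TPM in pmk-1(D327E), against 20.98, 3.79 and 13.9 TPM in pmk-1(km25). The groups did not overlap within any background, although the highest D327E library (4.12 TPM) stood above the lowest km25 library (2.09 TPM) across backgrounds. The log2 fold change of asp-17 was -2.65 ± 0.65 with daf-16(mgDf50) (adjusted p = 0.0861), -1.08 ± 0.65 with daf-16(m26) (adjusted p = 1.00) and -2.56 ± 0.53 with daf-16 intact (adjusted p = 0.0330), by limma on log2(TPM + 1), a scale that understates folds at such levels. Whether this fold differs between the backgrounds was not tested directly. asp-6 and asp-17 are in a list of lysosomal genes that the study drew up on these samples, so their direction is not independent evidence for that list.

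These calls rest on few libraries. For the fits that left out a library, the share of all genes called was not counted. With daf-16 intact, leaving out D327E replicate 1 or 2 left 0 of the 10 members called. Leaving out km25 replicate 1 or 3 left asp-6 alone (adjusted p = 0.0662 and 0.0862), and leaving out km25 replicate 2 or D327E replicate 3 left asp-17 alone (adjusted p = 0.00243 and 0.0735). With daf-16(mgDf50), leaving out km25 replicate 2 left asp-17 alone (adjusted p = 0.0980), and leaving out any of the other 3 libraries left none. The log2 fold change stayed between 0.66 and 1.04 for asp-6 and between -3.20 and -2.10 for asp-17 with daf-16 intact. With daf-16(mgDf50) it stayed between 1.01 and 1.23 for asp-6, between -3.38 and -1.91 for asp-17 and between -0.49 and -0.33 for asp-4. asp-6 lost its call in both backgrounds when libraries were rescaled to the median gene (adjusted p = 0.121 and 0.14), asp-17 lost it with daf-16(mgDf50) at a pseudocount of 0.1 TPM (adjusted p = 0.189) or with no filter on low values (adjusted p = 0.128), and asp-6 lost it with daf-16 intact with no filter (adjusted p = 0.123). In a fit of only the genotypes compared, asp-6 (adjusted p = 0.625) and asp-17 (adjusted p = 0.434) lost their calls with daf-16 intact, asp-4 (adjusted p = 0.837) and asp-17 (adjusted p = 0.279) lost theirs with daf-16(mgDf50), and asp-6 kept its call with daf-16(mgDf50) (adjusted p = 0.0328).

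The other 7 members had no adjusted p below 0.1 in this comparison in any background. asp-3, the other cathepsin D-like gene, had log2 fold changes of 0.80, 0.46 and 0.50 with daf-16(mgDf50), with daf-16(m26) and with daf-16 intact, and asp-5 had 0.88, 0.84 and 0.73. asp-5 was at 597 and 471 TPM in D327E worms with daf-16(mgDf50), against 337 and 247 TPM in km25 worms with daf-16(mgDf50). The D327E libraries of asp-3 and asp-5 were above the km25 libraries in both daf-16 mutant backgrounds, and they overlapped with daf-16 intact. asp-8 was at 8.20 and 8.87 TPM in D327E worms with daf-16(mgDf50), against 1.95 and 1.16 TPM in km25 worms with daf-16(mgDf50), a log2 fold change of 1.92 ± 0.58 (adjusted p = 0.273, limma), and its fold was smaller with daf-16(m26), 0.57, and with daf-16 intact, 0.30. asp-1 and asp-2 had log2 fold changes of 0.12 to 0.34, asp-10 of 0.32 to 0.63 and asp-13 of -0.09 to 0.17. The median log2 fold change of the 10 members was 0.49 with daf-16(mgDf50), 0.30 with daf-16(m26) and 0.24 with daf-16 intact, beside 0.03, -0.04 and 0.03 over all tested genes. Without overlap between the groups were 8, 7 and 3 of the 10 members, where 22.5%, 27% and 6.28% of all tested genes were.

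**Figure D3:**
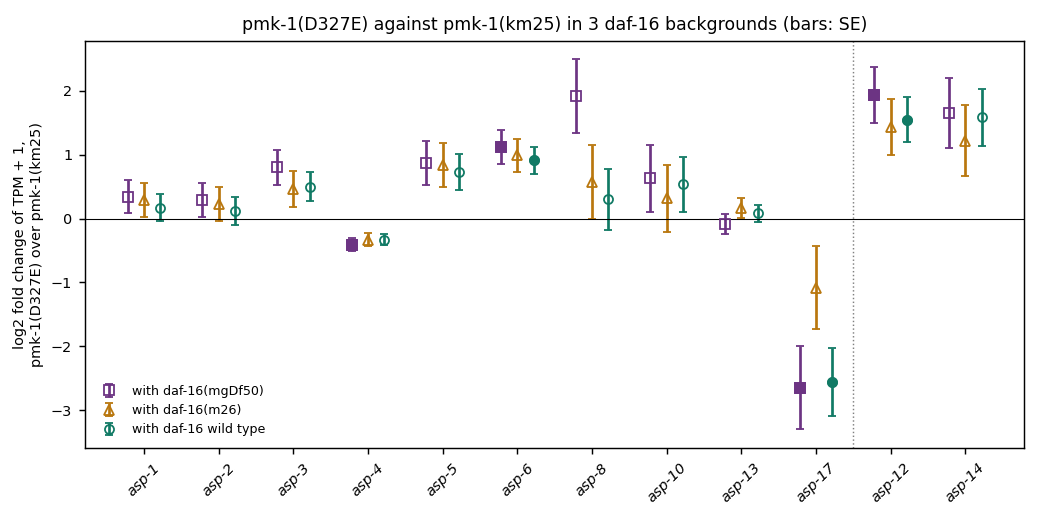
log2 fold change of TPM + 1 for pmk-1(D327E) over pmk-1(km25), from limma, for the 10 asp genes and, right of the dotted line, asp-12 and asp-14; bars are SE, squares are with daf-16(mgDf50), triangles with daf-16(m26) and circles with daf-16 intact, and filled symbols passed an adjusted p of 0.1. asp-6 is near 1 in all 3 backgrounds, asp-4 is slightly below 0 in all 3, and asp-17 is lower than -2 in 2 of them.

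The rest of the asp family was measured in the same table. Besides the 10 members it held 7 asp genes, of which asp-12 and asp-14 passed the filter on low values. The other 5, asp-7, asp-9, asp-11, asp-15 and asp-16, were at no more than 0.284 TPM in any library and were not tested. asp-12, the gene between asp-6 and asp-5, was at 9.25 and 11.7 TPM in D327E worms with daf-16(mgDf50), against 1.92 and 2.08 TPM in km25 worms with daf-16(mgDf50), and at 7.50, 7.20 and 11.3 TPM in pmk-1(D327E), against 2.15, 0.785 and 5.12 TPM in pmk-1(km25). It passed in both, with log2 fold changes of 1.93 ± 0.44 (adjusted p = 0.0530) and 1.55 ± 0.36 (adjusted p = 0.0672), and had 1.43 ± 0.44 with daf-16(m26) (adjusted p = 0.455, limma). With daf-16(mgDf50) the call of asp-12 was lost whichever library was left out (adjusted p = 0.221 to 0.446). With daf-16 intact it was lost without any of 5 of the 6 libraries and held without km25 replicate 3 (adjusted p = 0.00458 to 0.348, log2 fold change 1.11 to 2.00), and it was also lost with no filter (adjusted p = 0.113) and with only the genotypes compared (adjusted p = 0.786). asp-12 is in the study's lysosomal list too. asp-14 was at 186, 194 and 268 TPM in pmk-1(D327E), against 140.0, 41.3 and 60.4 TPM in pmk-1(km25), and its log2 fold changes of 1.65, 1.22 and 1.58 in the same order of backgrounds did not pass. With daf-16 intact, leaving out a library gave asp-14 log2 fold changes of 1.20 to 2.07 and adjusted p of 0.0331 to 0.742 (limma).

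No aspartyl protease of another family passed a test. Those measured were the presenilins sel-12, hop-1 and the sperm-specific spe-4, which cut inside membranes, the presenilin-like imp-1, imp-2 and imp-3, and C01G5.6, the retroviral-type protease ddi-1. All 7 passed the filter on low values, and none had an adjusted p below 0.1 or an unadjusted p below 0.05 in any of the 18 comparisons.

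Against worms with unaltered pmk-1, no member passed for either allele. In pmk-1(km25) against wild type 0 of 10 members were called, where 0.631% of all genes were, and 2 had an unadjusted p below 0.05, against 4.65% of all genes. These were asp-6, at 547, 329 and 552 TPM in pmk-1(km25), against 664, 558 and 913 TPM in wild type, and asp-17, at 20.98, 3.79 and 13.9 TPM in pmk-1(km25), against 1.91, 0.875 and 5.01 TPM in wild type. asp-6 had all 3 km25 libraries below the wild-type libraries, as 3.61% of all genes did, and asp-17 overlapped. Their log2 fold changes were -0.59 ± 0.21 (adjusted p = 0.680) and 1.86 ± 0.53 (adjusted p = 0.301) by limma. In the limma fit of all 21 libraries with the replicate number as a common block, 2 members passed, against 1.67% of all genes. They were asp-6 (adjusted p = 0.00815) and asp-17 (adjusted p = 0.0923). Whether replicate numbers pair the libraries is unclear, and no paired fit of these genotypes alone was run. Without pmk-1(km25) replicate 2 the unblocked limma fit called asp-17, with a log2 fold change of 2.498 (adjusted p = 0.0204), as the 1 member called. The share of all genes called in that fit was not counted.

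In km25 worms with daf-16(mgDf50) against daf-16(mgDf50), 0 of 10 members were called (0.405% of all genes) and 2 had an unadjusted p below 0.05, against 3.35% of all genes. asp-6 was at 483 and 415 TPM in km25 worms with daf-16(mgDf50), against 931 and 732 TPM in daf-16(mgDf50), a log2 fold change of -0.88 ± 0.26 (adjusted p = 0.452). asp-4 had 0.26 ± 0.10 (adjusted p = 1.00), both by limma. In km25 worms with daf-16(m26) against daf-16(m26), 0 of 10 were called (0.358% of all genes), and asp-6 alone had an unadjusted p below 0.05, as 3.18% of all genes had. It was at 487 and 426 TPM in km25 worms with daf-16(m26), against 879 and 706 TPM in daf-16(m26), or -0.79 ± 0.26 (adjusted p = 0.640, limma). In that comparison 7 of 10 members had both double-mutant libraries below both daf-16(m26) libraries, where 12% of all genes did. The median log2 fold change of the members for km25 was -0.34 with daf-16(mgDf50), -0.39 with daf-16(m26) and -0.17 with daf-16 intact, beside -0.02, 0.04 and -0.05 over all tested genes.

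For D327E no member passed against worms with unaltered pmk-1 either. None was called in pmk-1(D327E) against wild type (0.0779% of all genes), in D327E worms with daf-16(m26) against daf-16(m26) (0.0467%) or in D327E worms with daf-16(mgDf50) against daf-16(mgDf50) (0.202%), and the members with an unadjusted p below 0.05 numbered 1, 1 and 0, against 1.03%, 1.11% and 1.72% of all genes. The member was asp-4 both times. It was at 188, 182 and 189 TPM in pmk-1(D327E), against 206, 225 and 204 TPM in wild type (log2 fold change -0.18 ± 0.08), and at 199 and 189 TPM in D327E worms with daf-16(m26), against 246 and 208 TPM in daf-16(m26), a log2 fold change of -0.22 ± 0.10 (adjusted p = 1.00 for both, limma). In D327E worms with daf-16(mgDf50) it was at 179 and 199.9 TPM, against 214 and 208 TPM in daf-16(mgDf50), or -0.15 ± 0.10 (adjusted p = 1.00, limma). All D327E libraries of asp-4 lay below their counterparts in the 3 backgrounds, as 4.34%, 14.9% and 4.59% of all genes did in each. asp-17 had log2 fold changes of -0.70 with daf-16 intact, -1.02 with daf-16(m26) and -1.31 with daf-16(mgDf50), none of which passed. The comparisons of km25 and D327E with the same worms share those libraries and are not independent of each other.

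The daf-16 alleles alone gave no call either. In daf-16(mgDf50) against wild type 0 of 10 members passed (0.366% of all genes) and the members under an unadjusted p of 0.05 were asp-5 and asp-17, where 10.2% of all genes were under it. In daf-16(m26) against wild type 0 of 10 passed (0.195% of all genes) and those under 0.05 were asp-5 and asp-10, where 7.23% of all genes were. asp-5 was at 612 and 329.6 TPM in daf-16(mgDf50) and at 524 and 373 TPM in daf-16(m26), against 275, 228 and 334 TPM in wild type, with log2 fold changes of 0.70 ± 0.31 (adjusted p = 0.488) and 0.68 ± 0.31 (adjusted p = 0.604, limma). asp-10 was at 29.7 and 32.5 TPM in daf-16(m26), against 87.0, 88.5 and 43.5 TPM in wild type. Its log2 fold change was -1.13 ± 0.48 (adjusted p = 0.604, limma), and the groups did not overlap, with all daf-16(m26) libraries below, as 20.6% of all genes had in that comparison. The msp sum was 4846 and 5195 TPM in these daf-16(m26) libraries, against 3340, 1453 and 5491 TPM in wild type. Over the 21 libraries asp-10 had a correlation of -0.79 with msp level. asp-1 was at 2536 and 1697 TPM in daf-16(mgDf50) and at 2390.5 and 1845 TPM in daf-16(m26), against 1509, 1182 and 1816 TPM in wild type, with log2 fold changes of 0.49 and 0.50 that did not pass.

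Between the daf-16 alleles asp-17 had the largest log2 fold change of the members with each of the 3 pmk-1 genotypes. It was at 38.3 and 13.2 TPM in km25 worms with daf-16(mgDf50), against 2.09 and 2.73 TPM in km25 worms with daf-16(m26), a log2 fold change of 2.80 ± 0.65 (adjusted p = 0.212, limma). It was at 9.19 and 7.62 TPM in daf-16(mgDf50), against 2.17 and 2.33 TPM in daf-16(m26), or 1.53 ± 0.65 (adjusted p = 1.00), and at 1.79 and 4.12 TPM in D327E worms with daf-16(mgDf50), against 0.374 and 0.870 TPM in D327E worms with daf-16(m26), or 1.24 ± 0.65 (adjusted p = 1.00, limma). Both mgDf50 libraries were above both m26 libraries in all 3, as 9.43%, 11.2% and 24.1% of all genes were, yet none passed, and 0 of 10 members were called in any of the 3 comparisons, beside 0.202%, 0.226% and 0.109% of all genes. asp-17 was the 1 member under an unadjusted p of 0.05 in the first 2, and there was none in the third, where 1.99%, 3.13% and 2.73% of all genes were. asp-17 in km25 worms with daf-16(m26), at 2.09 and 2.73 TPM, overlapped daf-16(m26), at 2.17 and 2.33 TPM, and wild type.

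**Figure D4:**
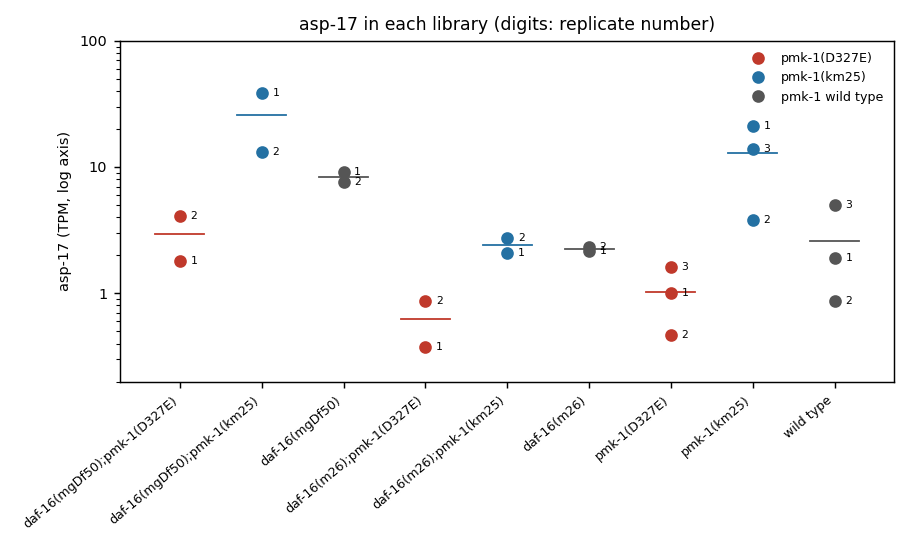
asp-17 in each library by genotype (TPM, log axis); points are libraries with their replicate number, lines are genotype means, and colours give the pmk-1 allele. km25 worms with daf-16(mgDf50) reach 38.3 TPM and pmk-1(km25) worms 20.98 TPM, while km25 worms with daf-16(m26), at 2.09 and 2.73 TPM, lie within the wild-type range of 0.875 to 5.01 TPM.

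Interactions of a pmk-1 allele with a daf-16 allele, the test of whether the effect of one depends on the other, called 0 of 10 members in all 4 cases, where 0.0779%, 0.0156%, 0.109% and 0.0234% of all genes were called for km25 with mgDf50, km25 with m26, D327E with mgDf50 and D327E with m26. One value had an unadjusted p below 0.05, as 1.32% of all genes had in that interaction, and it was that of asp-17 for km25 with m26, at -1.80 ± 0.84 on the log2 scale (adjusted p = 0.894, limma). The interaction values of asp-6 were -0.29 ± 0.34 and -0.20 ± 0.34 for km25 with mgDf50 and with m26, and -0.08 ± 0.34 and -0.12 ± 0.34 for D327E with mgDf50 and with m26, each within 1 SE of 0.

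The levels of several members ran with those of the msp genes across libraries. Over the 21 libraries the average log2(TPM + 1) of the 31 msp genes had a Pearson correlation of 0.67 with asp-1 and with asp-2, 0.54 with asp-3 and asp-5, 0.30 with asp-6, 0.31 with asp-17, 0.01 with asp-4 and -0.79 with asp-10. asp-10 was at 88.5 TPM in wild type replicate 2 and 75.6 TPM in pmk-1(km25) replicate 2, the libraries lowest in msp, and at 43.5 TPM in wild type replicate 3, where the msp sum was 5491 TPM. The libraries share genotypes, so these values describe the set and carry no test. spe-4, the sperm presenilin, had a correlation of 0.97. The msp sum spanned 2515 to 5891 TPM in the 7 D327E libraries, against 1487 to 6708 TPM in the 7 km25 libraries, so the ranges overlapped.

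With msp level (the mean log2 value of those genes) as a covariate, a fit chosen after seeing the data, the SE of asp-6 in pmk-1(D327E) against pmk-1(km25) was 0.09, against 0.21 without it, and more members passed. In pmk-1(D327E) against pmk-1(km25) there were 5 (asp-3, asp-4, asp-5, asp-6 and asp-17), where 2.32% of all genes were called. With daf-16(mgDf50) there were 6 (the same 5 and asp-8, against 2.46% of all genes), and with daf-16(m26) there were 3 (asp-3, asp-5 and asp-6, against 1.49%). asp-6 then had log2 fold changes of 0.96, 1.08 and 1.03 with daf-16 intact, with daf-16(mgDf50) and with daf-16(m26). In pmk-1(km25) against wild type 3 passed (asp-3, asp-6 and asp-17, against 1.44%), with asp-3 at -0.43 ± 0.08 and asp-6 at -0.70 ± 0.09. asp-17 passed in daf-16(mgDf50) against daf-16(m26) (2.06 ± 0.34, against 2.43% of all genes) and in km25 worms with daf-16(mgDf50) against km25 worms with daf-16(m26) (2.91 ± 0.33, against 0.522%). What sets the msp level of a library was not tested.

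**Figure D5:**
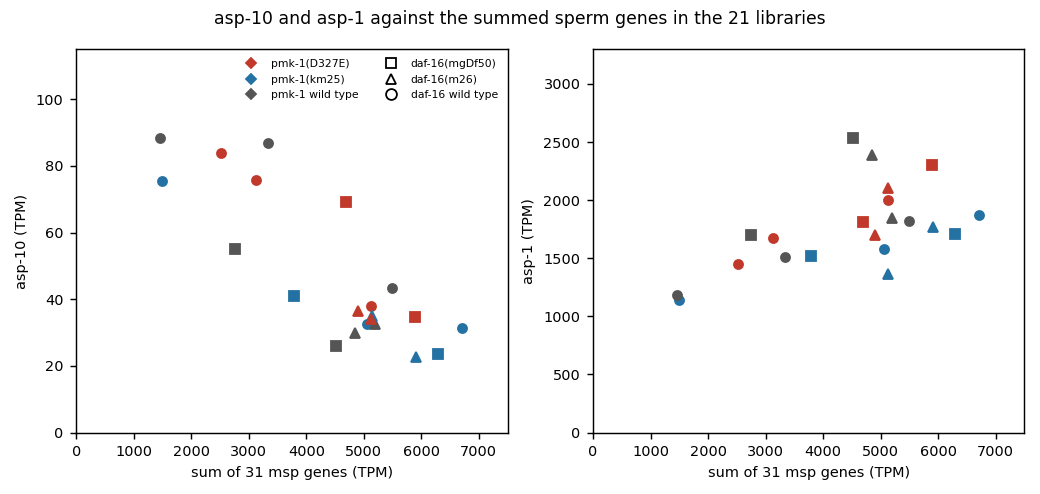
asp-10 (left) and asp-1 (right) against the sum of the 31 msp genes in the 21 libraries (all in TPM, axes from 0); colours give the pmk-1 allele and symbols the daf-16 allele. asp-10 falls and asp-1 climbs as the msp sum grows, with correlations of -0.79 and 0.67 on the log2 scale.

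asp-1, asp-2, asp-3, asp-5 and asp-6 varied together (r of 0.66 to 0.96 between pairs), and asp-4, asp-10 and asp-17 had an r of at most 0.18 with any of them. With the same group asp-13 had an r of 0.42 (asp-6) to 0.78 (asp-2), and asp-8 of 0.51 (asp-2) to 0.74 (asp-6). asp-14, not a member, had 0.80 (asp-2) to 0.93 (asp-5), so the group is not sharply set apart. Over the 21 libraries the Pearson correlation of log2(TPM + 1) was 0.96 between asp-1 and asp-2, 0.93 between asp-3 and asp-5, 0.91 between asp-3 and asp-6 and 0.86 between asp-5 and asp-6. asp-4 had -0.76 with asp-6 and 0.56 with asp-17, and asp-17 had -0.40 with asp-6. asp-10 had its lowest value, -0.61, with asp-1. asp-6 and its neighbour asp-12 had 0.89. For the 3 members that passed a test, the tested genes most like them over the 21 libraries were F54D5.4 (0.97), ZK6.11 (0.97) and the C-type lectin clec-63 (0.97) for asp-6, the acyl-CoA synthetase acs-22 (0.85) and the cathepsin B-like cpr-4 (0.85) and cpr-1 (0.83) for asp-4, and the cathepsin B-like cpr-5 (0.87), the carbonic anhydrase cah-5 (0.87) and C54D10.3 (0.85) for asp-17. These are descriptions over libraries that share genotypes and msp level, with no test.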

How the data were processed

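RNA from whole worms was made into polyA, stranded libraries and sequenced as single-end reads. The submitters' processing notes name FastQC 0.11.2, STAR 2.5.3a, Picard 2.10 for duplicates, featureCounts and edgeR, with build ce10, and the study's methods name another STAR release. The authors deposited a table of TPM values. TPM keeps no depth, so the depth of each library is unknown and no interval that needs it is given. Another 8 deposited tables hold edgeR comparisons by the authors (log2 fold changes, log2 CPM, test scores, p-values and FDR), which were not used here.

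TPM values were put on the scale log2(TPM + 1), genes averaging 1 TPM or more across the 21 libraries were kept (12843 of 22840, all 10 members among them), and limma 3.58.1 (R 4.3.3, trend and robust) was fitted with 9 genotypes and no block. The 14 comparisons between genotypes and 4 interactions were adjusted by Benjamini-Hochberg over all genes, with calls below 0.1. The script was tested on simulated data with noise drawn independently for each gene and library. That noise lacks the variation in msp level that the real libraries share, so the simulation says nothing about calls under it. Samples were grouped by the genotype in their labels. Named were all 10 members, any other aspartyl protease that passed, and for each member that passed the 3 genes most correlated with it. asp-14, which passed in no comparison of that fit with all 21 libraries, was named after its values were seen. The members and lists were chosen with earlier results of these data known. In pmk-1(km25) and wild type the deviations of same-numbered libraries from their genotype means correlated at 0.20, 0.86 and 0.42 over genes. These values met a criterion for pairing of at least 3 pairs, each above 0.1. But pmk-1(km25) replicate 1 correlated at 0.77 with wild type replicate 3, so whether the numbers pair these libraries is unclear. The other comparisons with 3 pairs had a pair below 0.1, and those with 2 pairs could not meet the criterion. The second daf-16(mgDf50);pmk-1(km25) library is titled replicate 1 and was numbered 2 from its bracketed name. Alternatives were a pseudocount of 0.1, no filter, rescaling of libraries, the replicate block, only the genotypes compared, leaving out each library and, added after seeing the data, the msp covariate. Planned promoter and protein features of the members were not analysed here.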

Additional observations from a re-analysis of the deposited data

How the results depend on the processing

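TPM gives no depth, genotypes have 2 or 3 libraries, and most calls lie near the threshold. The counts of members called moved with the settings, and what moved them was not tested. No log2 fold change with an unadjusted p below 0.05 turned its sign under any alternative. In pmk-1(D327E) against pmk-1(km25), where 2 members were called, there was 1 (asp-17) with no filter on low values (0.661% of all genes). There were 0 with only the genotypes compared (0.397%), and 0 to 1 when leaving out a library. The share over all genes was not counted for fits that left out a library. In D327E worms with daf-16(mgDf50) against km25 worms with daf-16(mgDf50), where 3 were called, leaving out a library gave 0 to 1. Shifting libraries so that the median log ratio is 0 left 2 calls in both comparisons, asp-4 and asp-17. Of all genes, 0.981% were then called with daf-16 intact and 1.07% with daf-16(mgDf50). asp-6 then had an adjusted p of 0.121 with daf-16 intact and 0.14 with daf-16(mgDf50), by limma. In pmk-1(km25) against wild type leaving out a library gave 0 to 1, and every other comparison stayed at 0 when a library was left out.

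With only the genotypes compared, 2 members (asp-5 and asp-6) were called in km25 worms with daf-16(m26) against daf-16(m26) (1.57% of all genes) and 4 (asp-3, asp-5, asp-6 and asp-17) in D327E worms with daf-16(m26) against km25 worms with daf-16(m26) (2.5%). With the replicate number as a block the members called were 2 in pmk-1(km25) against wild type (1.67% of all genes), 4 in pmk-1(D327E) against pmk-1(km25) (2.09%), 6 in D327E worms with daf-16(mgDf50) against km25 worms with daf-16(mgDf50) (2.27%), 1 in D327E worms with daf-16(m26) against km25 worms with daf-16(m26) (1.19%), and 1 each (asp-6) in km25 worms with daf-16(mgDf50) against daf-16(mgDf50) (0.989%) and in km25 worms with daf-16(m26) against daf-16(m26) (1.29%). The block also gave 1 (asp-17) in km25 worms with daf-16(mgDf50) against km25 worms with daf-16(m26) (0.413%), 7 in daf-16(mgDf50) against wild type and 5 in daf-16(m26) against wild type, where 34.7% and 23.2% of all genes were then called, and it changed no other count. Same-numbered libraries of the 6 genotypes with a daf-16 allele correlated at 0.344 to 0.759, but with 2 libraries a genotype has a single deviation and its mirror image, and no label used here ties the numbers to a shared batch, so whether they pair these libraries is unknown. With 3 pairs, pmk-1(D327E) had -0.32 to 0.71 with pmk-1(km25) and 0.02 to 0.77 with wild type. With the msp covariate, besides the counts given with the results, 5 members were called in daf-16(mgDf50) against wild type (9.46% of all genes), 5 in km25 worms with daf-16(mgDf50) against daf-16(mgDf50) (3.29%), 3 in km25 worms with daf-16(m26) against daf-16(m26) (1.07%), 1 in D327E worms with daf-16(mgDf50) against daf-16(mgDf50) (0.67%), 2 in daf-16(mgDf50) against daf-16(m26) and 1 in km25 worms with daf-16(mgDf50) against km25 worms with daf-16(m26). It gave 3 in pmk-1(km25) against wild type, 5 in pmk-1(D327E) against pmk-1(km25), and 6 with daf-16(mgDf50) and 3 with daf-16(m26) for D327E against km25. The causes were not tested.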
